A study of Mus musculus with 6 samples.

Results

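Interferon-stimulated genes are the genes that a cell switches on after interferon has bound its receptor. The list followed here held 42 of them, chosen by symbol; all 42 were in the deposited mouse table, each on 1 row, among 22481 genes in all. They were measured by RNA sequencing in B cells taken by magnetic selection from the lungs of 3-month-old C57BL/6 mice, 3 wild-type (WT) samples and 3 5xFAD samples. Mice of the 5xFAD line carry mutant human transgenes of inherited Alzheimer's disease, driven by the neuronal Thy1 promoter, and serve as an amyloid mouse model; the labels name no treatment in either group. Whether every sample had an animal of its own is not in the labels, so p-values cover only the spread between these 6 samples, which may be technical.

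As background, type I interferons signal through IFNAR1 and IFNAR2 and the kinases JAK1 and TYK2 to a transcription factor complex that holds STAT2 and IRF9 and binds the interferon-stimulated response element (ISRE) in promoters. Interferon gamma acts mainly through the gamma-activated site (GAS). The induced proteins sense foreign nucleic acid, degrade or sequester viral RNA, block translation, and restrict viral entry and release, and some feed back on the pathway. Lymphocytes keep part of the set at a basal level without infection.

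The letters of both elements were searched in the promoters. RefSeq promoter windows on GRCm38.p6, from 250 bases before to 50 after each annotated start site, matched 33 of the 42 members by symbol. The ISRE letters (GAAA, any 2 bases, GAAA), searched on both strands, were present near 19 of these 33 (57.6%), against 1079 of 27025 genes (3.99%) in the whole table of promoters. The GAS letters (TTC, any 3 bases, GAA), which read the same on both strands, were present near 10 of the 33 (30.3%), against 9.55% of all genes. ISRE and GAS matches can overlap each other, as they did at Bst2 and Ifitm3. The 100 bases before the start site are printed for 7 members, 5′ to 3′ on the gene's strand, with ISRE and GAS matches in capitals. Isg15 has 3 overlapping ISRE matches, Igtp, Gbp2 and Oas1a are members whose genotypes did not overlap in level, Irgm2 is the neighbour of Igtp, and Xaf1 and Trim25 differed in the same way without a match in the window.
Isg15, chr4:156200819-156200918, minus strand: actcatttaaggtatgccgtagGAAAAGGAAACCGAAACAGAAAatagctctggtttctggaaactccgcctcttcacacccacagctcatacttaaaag
Igtp, chr11:58199456-58199555, plus strand: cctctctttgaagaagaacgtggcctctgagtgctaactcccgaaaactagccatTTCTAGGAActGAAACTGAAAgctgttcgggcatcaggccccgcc
Irgm2, chr11:58214877-58214976, plus strand: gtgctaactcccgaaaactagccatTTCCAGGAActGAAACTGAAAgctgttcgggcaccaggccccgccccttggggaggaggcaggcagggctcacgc
Gbp2, chr3:142620563-142620662, plus strand: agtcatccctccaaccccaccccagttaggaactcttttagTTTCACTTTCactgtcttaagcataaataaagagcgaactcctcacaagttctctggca
Oas1a, chr5:120907526-120907625, minus strand: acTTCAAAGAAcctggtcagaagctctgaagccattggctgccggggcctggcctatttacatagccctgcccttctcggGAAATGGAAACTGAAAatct
Xaf1, chr11:72301529-72301628, plus strand: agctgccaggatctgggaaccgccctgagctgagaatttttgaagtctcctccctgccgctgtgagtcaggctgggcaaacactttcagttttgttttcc
Trim25, chr11:88999303-88999402, plus strand: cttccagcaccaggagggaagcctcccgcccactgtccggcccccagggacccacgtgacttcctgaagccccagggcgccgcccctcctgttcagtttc

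The stretches of Igtp and Irgm2 carry a GAS followed by an ISRE whose first bases lie 11 bases apart, beginning at -45 and -34 at Igtp and at -75 and -64 at Irgm2, counted from the start site. Of the 21 bases that span both matches, 20 were identical between the genes, and of the 70 bases that the printed stretches share when shifted by 30 bases, 68 were identical. Over the whole windows at the same shift the identity was lower, 184 of 270 bases (68.1%). At Gbp2 the ISRE letters lie on the other strand, from -59 to -50 of the RefSeq start site. The interval listed for Gbp2 with its level starts at 142620602, before these letters. At Ddx58 a match on the other strand lies just after the start site, from 3 to 12, so it is not in a printed stretch. An exact match is a description of these letters, not of binding.

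**Figure D1:**
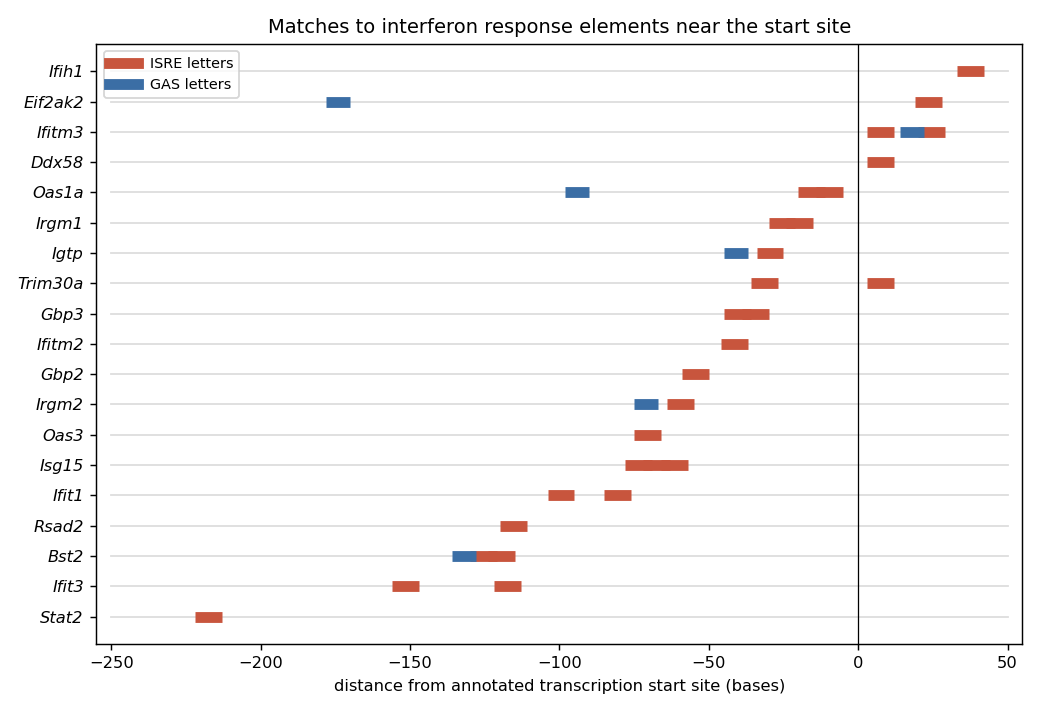
Positions of ISRE and GAS letters in the promoter windows of the 19 members with an ISRE match, as distance in bases from the annotated start site; grey lines are the windows and Trim30a has 2 annotated starts. ISRE matches of 15 of these genes lie before a start site, and those of Ifih1, Eif2ak2, Ifitm3 and Ddx58 lie after it.

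The libraries were shallow and mixed. Estimated counts per library summed to between 628581 and 782297, of which Lars2 alone held 37.5% to 45.7%. FPKM, fragments per kilobase of transcript and per 1e6 fragments, is the authors' level per length. The summed level of B cell markers was 345 to 435 FPKM in WT against 462 to 830 FPKM in 5xFAD; all 13 in the table had a positive difference and 7 were higher at an unadjusted p under 0.05 by edgeR. The summed level of endothelial markers was 482 to 602 FPKM in WT against 397 to 483 FPKM in 5xFAD; 11 of 12 had a negative difference and 4 were lower at that p. Over all 9651 genes tested below, 60.2% had a positive difference, and 8.46% were higher and 3.55% lower at that p. Markers of monocytes and macrophages (220 to 380 FPKM in WT, 208 to 501 FPKM in 5xFAD) and neutrophils (210 to 515 FPKM in WT, 251 to 558 FPKM in 5xFAD, with Ly6g at 0 in all 6 libraries) were also present. Most of the monocyte and macrophage sum was Lyz2 in every library (mean of 270 FPKM over the 6 libraries). The other markers of that list averaged from 0.222 FPKM (Csf1r) to 13.2 FPKM (Ly6c2), and Adgre1 and Chil3 were not listed. Whether Lyz2 came from such cells was not tested. Markers of T and NK cells summed to 16.4 to 22.5 FPKM in WT against 18.5 to 38.9 FPKM in 5xFAD, and those of plasmacytoid dendritic cells to 52.2 to 100.2 FPKM against 78.6 to 100.4 FPKM. Most of the plasmacytoid dendritic cell sum was Ly6d and Tcf4 in every library (means of 49.4 and 22.6 FPKM over the 6 libraries). Siglech averaged 4.56 FPKM, and Ccr9, Cox6a2 and Klk1 were at 0 in every WT library. Whether Ly6d and Tcf4 came from such cells was not tested. Epithelial markers summed to 181, 389 and 394 FPKM in WT against 250, 218 and 179 FPKM in 5xFAD. Genes with at least 0.5 counts numbered 7929 to 10381 in WT and 10490 to 11780 in 5xFAD. Interferon-stimulated genes can be expressed by all these cell types, and the part of cell composition in the values below was not tested. In such bulk samples, more cells of a type and more RNA per cell cannot be told apart.

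None of the 42 genes was called different between the 5xFAD and WT samples. Of these, 37 had a mean of at least 1 FPKM over the 6 libraries and were tested; 0 of the 37 passed edgeR's quasi-likelihood test at a Benjamini-Hochberg adjusted p under 0.05, where 0.114% of the 9651 tested genes were called (0.104% higher and 0.0104% lower). DESeq2 and limma also called 0 members. By the unadjusted p, 4 members under 0.05 were higher in 5xFAD, namely Igtp, Trim25, Ddx58 and Gbp2, and 0 were lower. This is 10.8% of the tested members, close to the 12.0% of all tested genes at that level (8.46% higher and 3.55% lower). The smallest adjusted p among members was 0.283. In FPKM, 6 tested members had every 5xFAD library above every WT library and 0 the reverse (16.2%, against 13.0% of all tested genes above and 4.42% below); they were Igtp, Trim25, Gbp2, Xaf1, Oas1a and Sp100. In estimated counts there were 7 such members (18.9%, against 14.3% above and 3.98% below). The genes without overlap on both scales were Igtp, Trim25, Xaf1 and Oas1a. Both scales come from the same libraries, and the share of all tested genes without overlap on both was not counted. Xaf1 and Oas1a averaged 0.271 and 0.192 FPKM in WT, against 6.73 and 2.24 FPKM in 5xFAD. They thus reached the mean of 1 FPKM needed for testing only through the 5xFAD libraries, where they are high.

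**Figure D2:**
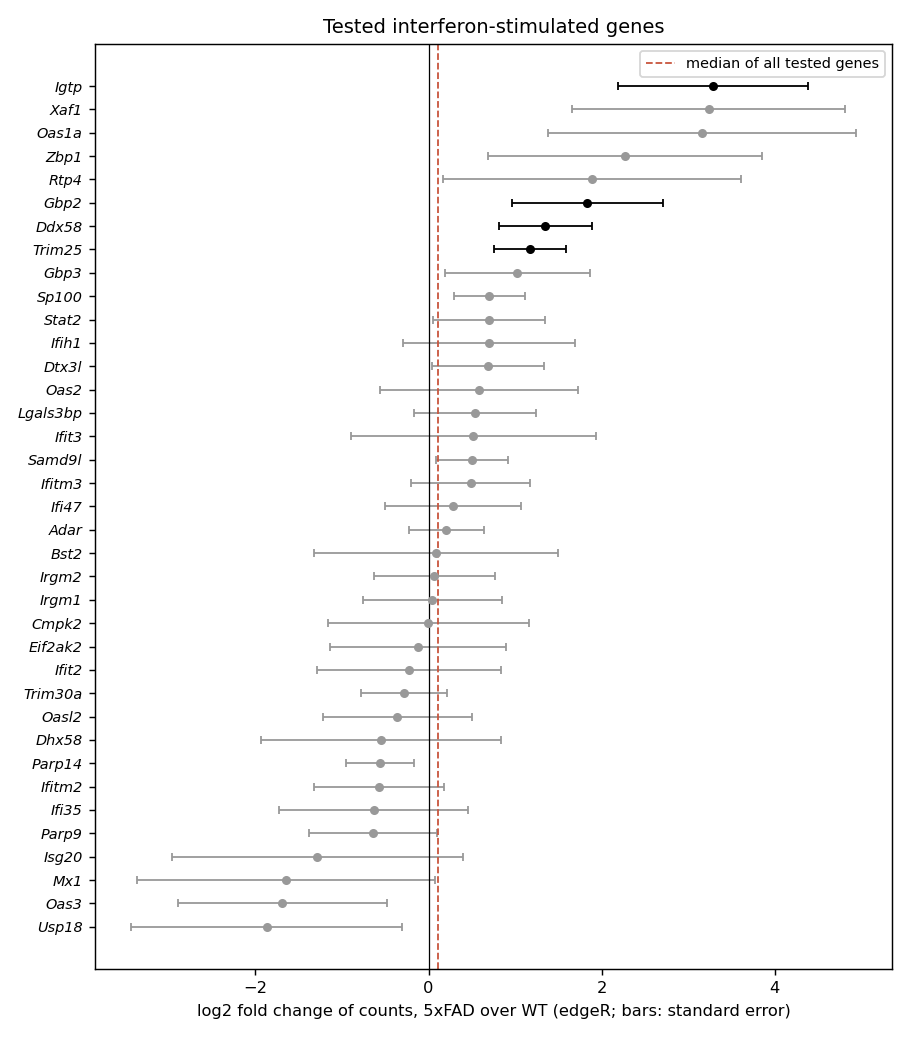
Log2 fold change of estimated counts, 5xFAD over WT, for the 37 tested members (points; bars are standard errors from edgeR); black marks the 4 at an unadjusted p under 0.05 and the dashed line is the median of all tested genes (0.11). The members run from -1.87 at Usp18 to 3.28 at Igtp, and most standard errors exceed 0.5.

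The median member lay a little above the median gene. Over all 42, 28 had a higher mean log2(FPKM + 1) in 5xFAD than in WT, with a median difference of 0.37. Of the 37 tested members 26 did, with a median of 0.38. Over the 9651 tested genes 60.2% were positive, with a median of 0.24. The median log2 fold change of counts was 0.28 for the tested members and 0.11 for all tested genes. Quantile normalization moved the median of all genes to 0.01 and that of the members to 0.20. The summed level of the 42 genes was 288, 368 and 386 FPKM in WT replicates 1, 2 and 3 and 483, 445 and 426 FPKM in 5xFAD replicates 1, 2 and 3, or 347 ± 51.7 and 451 ± 28.8 FPKM (SD, n = 3 each). Every 5xFAD library was above every WT library on this sum. After rescaling to the same total without Lars2, the highest WT sum (430.04 FPKM) exceeded the lowest 5xFAD sum (416 FPKM), so the groups then overlapped.

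**Figure D3:**
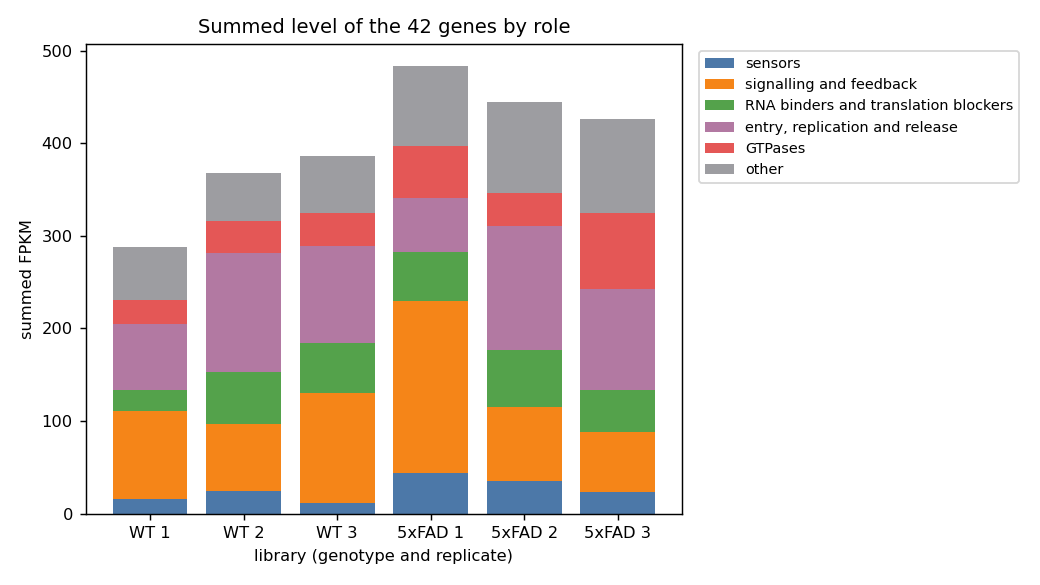
Summed FPKM of the 42 genes in each of the 6 libraries, stacked by the role of the genes. The WT bars reach 288 to 386 FPKM and the 5xFAD bars 426 to 483 FPKM; the signalling group makes up 186 FPKM of 5xFAD replicate 1, where Adar alone stood at 82.6 FPKM.

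Each library was the highest for some of the genes. The highest level of a gene fell in WT replicates 1, 2 and 3 for 6, 6 and 7 genes, and in 5xFAD replicates 1, 2 and 3 for 7, 10 and 6 genes. WT replicate 3 was highest for Usp18, Parp9, Oas3, Isg20, Rsad2, Irgm1 and Ifi35. In the same library Cmpk2, Ifit3, Igtp, Mx1, Mx2, Zbp1 and Isg15 were listed at 0. No library was thus the highest for most members.

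**Figure D4:**
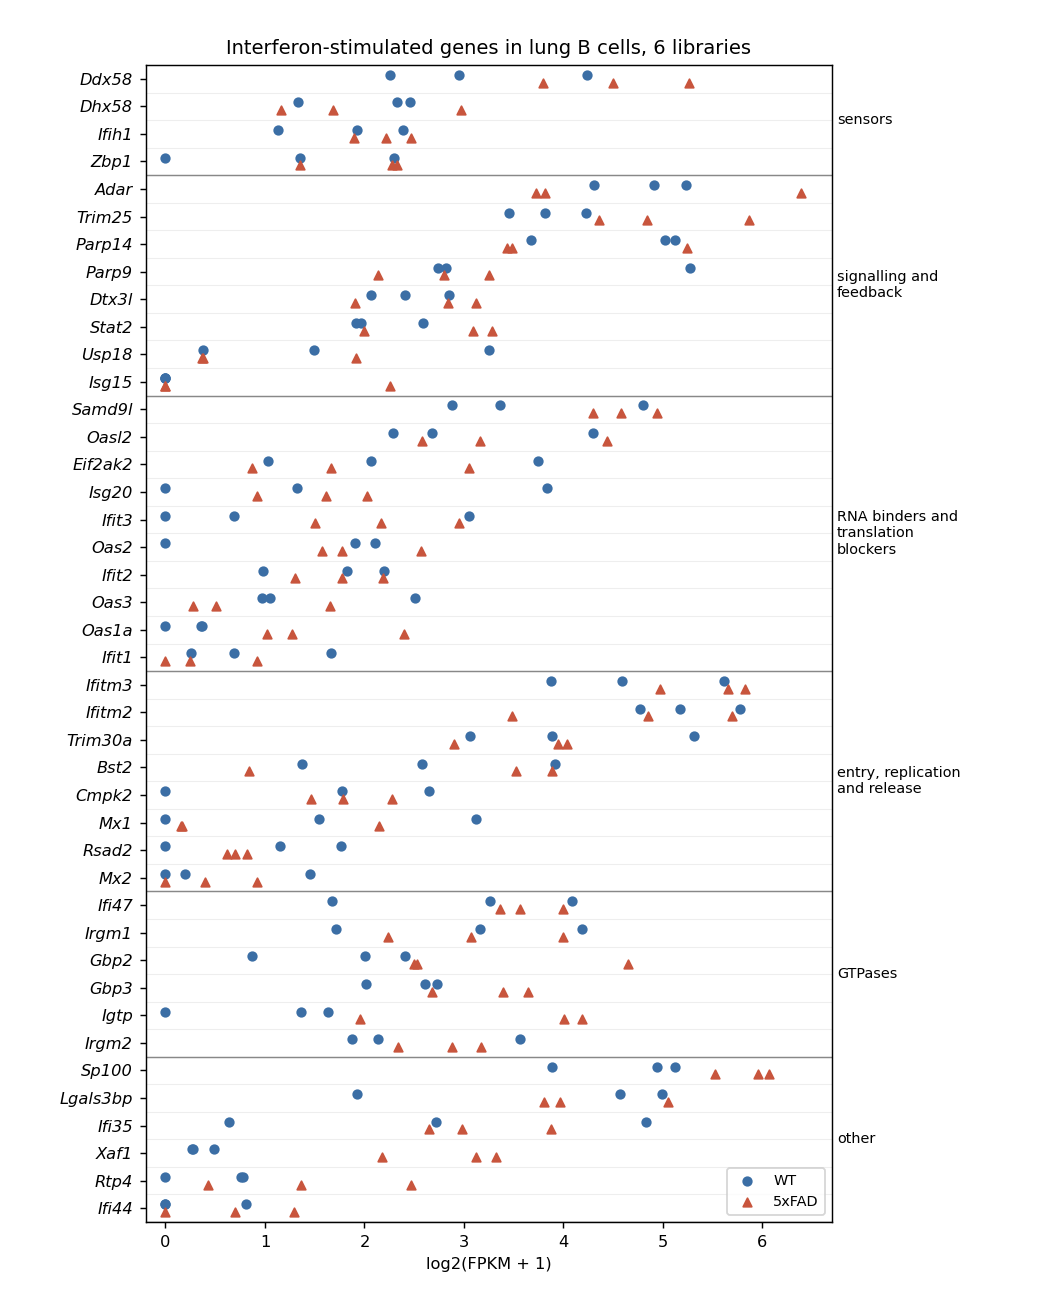
Level of each of the 42 genes as log2(FPKM + 1) in 3 WT libraries (circles) and 3 5xFAD libraries (triangles), grouped by role and ordered by mean level within a role. The genotypes stand apart for Trim25, Oas1a, Igtp, Gbp2, Xaf1 and Sp100, and overlap for the other 36.

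Among the sensors, Ddx58, which encodes the cytosolic RNA sensor RIG-I, had the highest level and the smallest p. It stood at 6.74, 17.9 and 3.77 FPKM in the WT replicates, against 37.5, 21.7 and 12.9 FPKM in the 5xFAD replicates, so WT replicate 2 lay above 5xFAD replicate 3. In estimated counts the groups did not overlap, with 46.5, 44.2 and 27.0 in WT and 168, 81.3 and 56.0 in 5xFAD (log2 fold change 1.35, SE 0.54; edgeR unadjusted p = 0.0185, adjusted p = 0.323). The value rests in part on 1 library: without 5xFAD replicate 1 the log2 fold change was 0.57 (edgeR unadjusted p = 0.334). Ifih1, which encodes MDA5, the sensor of long double-stranded RNA, had 13.8, 6.03 and 20.8 counts in WT, against 21.9, 23.6 and 27.5 in 5xFAD (log2 fold change 0.69, SE 0.99). Zbp1, a sensor of Z-form nucleic acid, had 1.98, 5.02 and 0 counts in WT, against 5.98, 20.8 and 11.9 in 5xFAD (log2 fold change 2.27, SE 1.58). Both were without overlap in counts but overlapped in FPKM. Dhx58, which encodes LGP2, a regulator of the other 2 RNA helicases, went between 1.23 and 6.86 FPKM with no order by genotype, and its locus holds 5 listed genes.

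Trim25 belongs to the signalling and feedback genes and encodes the ubiquitin ligase that activates RIG-I. Its level was 9.94, 17.7 and 13.1 FPKM in WT and 57.2, 27.6 and 19.4 FPKM in 5xFAD, or 13.6 ± 3.90 and 34.7 ± 19.9 FPKM (SD, n = 3 each). Its counts, 86.0, 105 and 54.1 against 263, 189 and 127, gave a log2 fold change of 1.17 (SE 0.42; edgeR unadjusted p = 0.00898, adjusted p = 0.291). The genotypes did not overlap on either scale, with 5xFAD replicate 1 the highest. Without that library the log2 fold change was 0.71 (edgeR unadjusted p = 0.10). Trim25 (ENSMUSG00000000275) is listed on chromosome 11 at 88999376 to 89020293 of GRCm38, plus strand. The RefSeq start site behind the printed stretch lies further in, so the end of that stretch falls inside this interval.

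The other genes of this role gave no common direction. Adar encodes the enzyme that converts adenosine to inosine in double-stranded RNA. It stood at 36.5, 29.0 and 18.8 FPKM in WT, against 82.6, 13.1 and 12.2 FPKM in 5xFAD, while its counts were 92.9, 64.3 and 86.3 against 111, 98.4 and 92.7 (log2 fold change 0.20, SE 0.44). Parp14, a mono-ADP-ribosyltransferase, had counts of 131, 137 and 204 against 80.8, 131 and 149, while its level ran from 9.77 to 36.7 FPKM. Stat2, the signalling subunit of the ISRE-binding complex, stood at 5.03, 2.90 and 2.77 FPKM in WT, against 3.00, 8.74 and 7.52 FPKM in 5xFAD. Dtx3l and Parp9, which form a ubiquitin ligase complex and are listed at 1 locus with Kpna1, had log2 fold changes of 0.69 (SE 0.64) and -0.64 (SE 0.74); over the summed locus the value was 0.28 (SE 0.42). Usp18, the protease that removes ISG15 and damps the interferon receptor, had the lowest log2 fold change of all members (-1.87, SE 1.57), carried by 28.1 counts in WT replicate 3 against at most 9.17 elsewhere. Isg15, a ubiquitin-like protein modifier, was listed at 0 in 5 libraries and at 4.73 counts in 5xFAD replicate 2; a count of 0 allows up to 3 counts, or 4.25 to 4.77 CPM in those libraries, for counting error only.

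Of the 10 genes that bind or cut foreign RNA or stop translation, Oas1a alone separated the genotypes, in FPKM and in counts. That is near the share of all tested genes with every 5xFAD library above WT (13.0% in FPKM and 14.3% in counts). Oas1a encodes an oligoadenylate synthetase, whose product activates RNase L. It had 0, 1.004 and 1.04 counts in WT, against 4.99, 15.1 and 3.67 in 5xFAD (edgeR unadjusted p = 0.0877, adjusted p = 0.506). Its levels were 0, 0.283 and 0.294 FPKM against 1.41, 4.27 and 1.03 FPKM, so the gene was weak in both genotypes. Oas1a passed the filter for testing only through its 5xFAD libraries. The related Oas3 had 8.90, 10.04 and 43.7 counts in WT, against 1.99, 18.0 and 3.67 in 5xFAD (log2 fold change -1.69, SE 1.20), and Oas2 a log2 fold change of 0.58 (SE 1.14). The 2 most abundant of this role were Samd9l, a translation inhibitor of the SAMD9 family, and Oasl2. Samd9l stood at 6.37, 26.9 and 9.27 FPKM in WT, against 22.9, 29.7 and 18.6 FPKM in 5xFAD (log2 fold change of counts 0.50, SE 0.42). Oasl2 stood at 3.89, 5.39 and 18.6 FPKM in WT, against 20.6, 4.97 and 7.93 FPKM in 5xFAD (log2 fold change of counts -0.36, SE 0.86). The genotypes overlapped for both. The RNA-binding Ifit1, Ifit2 and Ifit3, the kinase PKR (Eif2ak2) and the exonuclease Isg20 ranged from 0 to 13.3 FPKM over all libraries and overlapped between genotypes.

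Of the genes that restrict viral entry, replication and release, 0 of 8 separated the genotypes in FPKM or in counts; over all tested genes 13.0% lay above and 4.42% below in FPKM, and 14.3% and 3.98% in counts. Ifitm3 and Ifitm2, neighbouring genes of small membrane proteins that block fusion of virus with endosomes, came next in abundance after Sp100. Ifitm3 stood at 13.7, 23.0 and 48.1 FPKM in WT, against 30.3, 49.4 and 55.5 FPKM in 5xFAD (log2 fold change of counts 0.49, SE 0.69). Ifitm2 stood at 26.2, 53.9 and 35.1 FPKM in WT, against 10.2, 50.8 and 27.9 FPKM in 5xFAD (log2 fold change of counts -0.57, SE 0.75). The members of this pair had opposite signs, each within its error; as similar paralogs they may share reads, which was not tested. Trim30a, a TRIM family protein, ran from 6.46 to 38.7 FPKM, and Bst2, which tethers budding virus to the cell and also marks plasmacytoid dendritic cells, from 0.791 to 14.1 FPKM. Mx1 and Mx2, dynamin-like GTPases listed at 1 locus with 10 further genes, Rsad2, which encodes viperin, and its neighbour Cmpk2, a nucleotide kinase, stood between 0 and 7.73 FPKM.

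The interferon-inducible GTPases, which act on vacuoles that hold pathogens, held the gene with the smallest p of all members. Igtp, also called Irgm3, stood at 2.10, 1.57 and 0 FPKM in WT, against 17.2, 2.87 and 15.1 FPKM in 5xFAD. Its counts were 6.92, 6.03 and 0 against 60.8, 10.4 and 57.8 (log2 fold change 3.28, SE 1.10; edgeR unadjusted p = 0.00596, adjusted p = 0.283). The groups did not overlap, but 5xFAD replicate 2 lay close to the WT libraries, and without 5xFAD replicate 1 the log2 fold change was 2.80 (edgeR unadjusted p = 0.0636). Without WT replicate 3, which had 0 counts, it was 2.62. Irgm2, at the same locus (chromosome 11, 58199556 to 58222779 of GRCm38) and with the similar promoter stretch printed above, did not show this difference: it stood at 10.8, 2.68 and 3.39 FPKM in WT, against 6.36, 4.06 and 8.02 FPKM in 5xFAD (log2 fold change of counts 0.07, SE 0.70). Summed over both genes, the counts were 80.1, 24.1 and 22.9 in WT and 104, 37.8 and 112 in 5xFAD, and the log2 fold change was 1.01 (SE 0.60; edgeR unadjusted p = 0.107). The summed counts overlapped between genotypes. Whether reads were divided correctly between these related genes was not tested.

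The guanylate-binding proteins and the other members of this role were less clear. Gbp2 stood at 4.30, 0.831 and 3.02 FPKM in WT, against 4.75, 4.65 and 24.1 FPKM in 5xFAD (log2 fold change of counts 1.83, SE 0.87; edgeR unadjusted p = 0.0448, adjusted p = 0.399). In counts its groups overlapped, at 20.8, 4.02 and 14.6 against 22.9, 16.1 and 117, and without 5xFAD replicate 3 the log2 fold change was 0.40. Gbp3 had a log2 fold change of 1.02 (SE 0.84). Ifi47 stood at 2.20, 15.9 and 8.61 FPKM in WT, against 14.9, 10.8 and 9.32 FPKM in 5xFAD, and its locus holds 9 listed genes. Irgm1 stood at 2.28, 7.92 and 17.2 FPKM in WT, against 3.71, 7.42 and 14.9 FPKM in 5xFAD (log2 fold change of counts 0.04, SE 0.80). All 6 GTPases had a positive difference, as 60.2% of all tested genes had, and 2 of the 6 were higher at an unadjusted p under 0.05 by edgeR, where 8.46% of all tested genes were. Their summed level was 26.8, 34.6 and 35.3 FPKM in WT and 56.4, 35.2 and 83.0 FPKM in 5xFAD. On this sum 5xFAD replicate 2 lay above WT replicates 1 and 2 and just below WT replicate 3.

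Of the remaining 6 members, Xaf1 and Sp100 separated the genotypes in FPKM, and Xaf1 alone did so in counts. Over all tested genes 13.0% lay above and 4.42% below in FPKM, and 14.3% and 3.98% in counts. Xaf1 encodes a partner of the apoptosis inhibitor XIAP and stood in WT at 0.199, 0.404 and 0.210 FPKM, against 3.51, 7.71 and 8.97 FPKM in 5xFAD. These levels rest on 0.989, 2.01 and 1.04 counts in WT and on 5.98, 19.9 and 20.2 counts in 5xFAD (log2 fold change 3.23, SE 1.58; edgeR unadjusted p = 0.0501, adjusted p = 0.415; limma on log2(FPKM + 1) gave an unadjusted p of 0.00284). With 1 to 2 counts in each WT library, the size of the fitted change depends on the prior count of the model. The effect was not called by any tool run. The genotypes did not overlap on either scale, but Xaf1 passed the filter for testing only through its 5xFAD libraries. Xaf1 (ENSMUSG00000040483) lies on chromosome 11 at 72301629 to 72313733 of GRCm38, plus strand.

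Sp100, a scaffold protein of nuclear bodies, was the most abundant member. It stood at 33.8, 13.8 and 29.8 FPKM in WT, against 61.0, 65.9 and 44.9 FPKM in 5xFAD, or 25.8 ± 10.6 and 57.3 ± 11.0 FPKM (SD, n = 3 each). Its counts overlapped, at 169, 61.3 and 112 against 227, 237 and 135 (log2 fold change 0.70, SE 0.41; edgeR unadjusted p = 0.0955). Summed with Sp140, the other gene listed at its locus, the counts were 195, 80.4 and 155 in WT and 315, 308 and 200 in 5xFAD and did not overlap (log2 fold change 0.86, SE 0.39; edgeR unadjusted p = 0.0362, adjusted p = 0.390). Lgals3bp, a secreted galectin-binding glycoprotein, stood at 22.8, 30.8 and 2.79 FPKM in WT, against 14.6, 13.0 and 32.1 FPKM in 5xFAD. Ifi35 ran from 0.555 to 27.4 FPKM, both extremes in WT. Rtp4 and Ifi44 had at most 13.2 counts in any library.

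**Figure D5:**
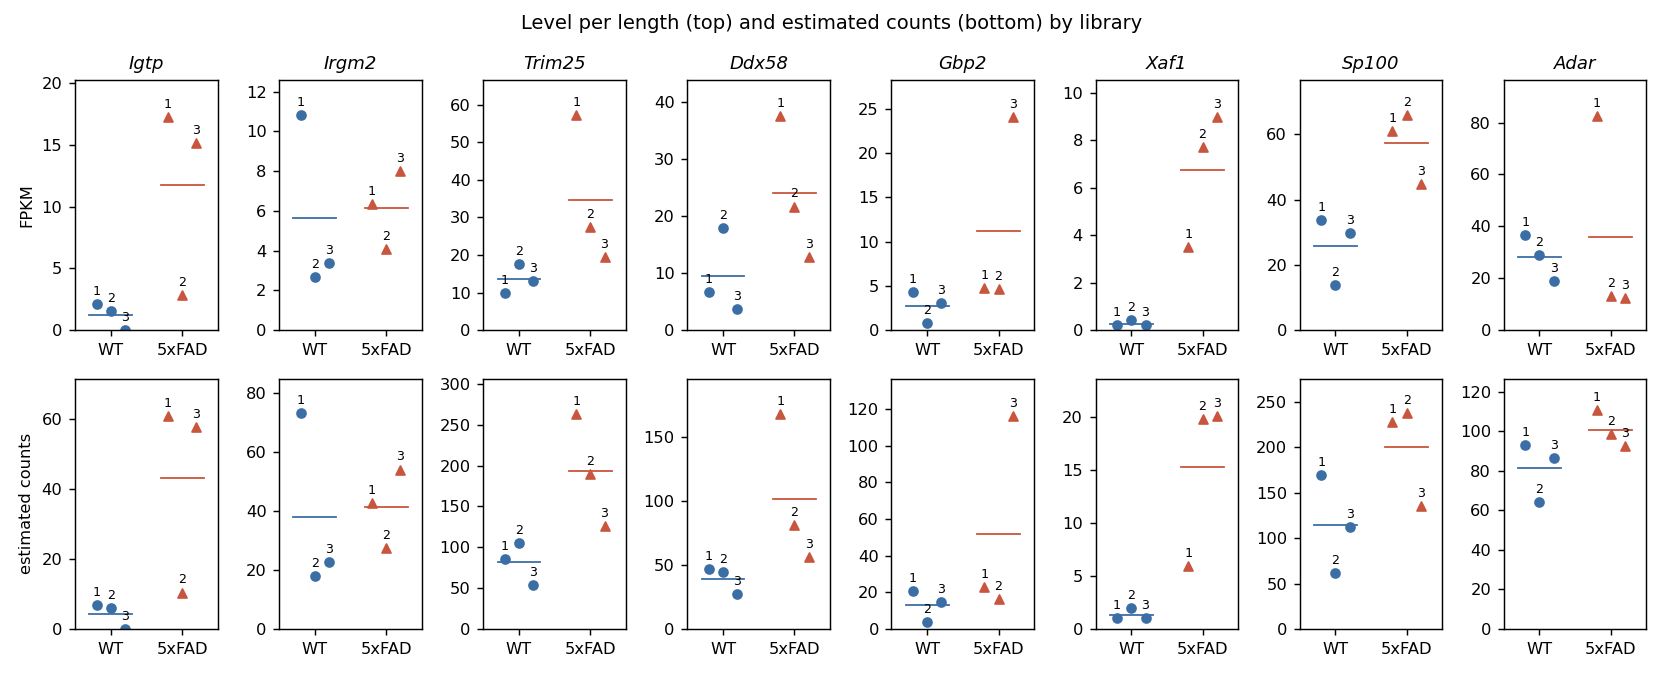
Level in FPKM (top row) and estimated counts (bottom row) of 8 members in each library; points are numbered by replicate, short lines are means of 3 libraries, and axes start at 0. Igtp and Irgm2 share a locus but not a pattern, and Adar shows 82.6 FPKM in 5xFAD replicate 1 beside counts of 64.3 to 111 in all 6 libraries.

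For many members the FPKM and the count of a library did not move together. FPKM per count, taken over libraries with at least 3 counts, could be compared for 40 members; it varied by under 5% between libraries for 14, among them Stat2, Ifitm2, Ifitm3 and Irgm2, and by over 1.5 times for 19. The widest were Parp14 (6.63 times), Dhx58 (5.94 times), Eif2ak2 (5.80 times) and Adar (5.66 times). The sign of the difference depended on the scale for 5 tested members, namely Adar, Oasl2, Ifit2, Cmpk2 and Ifi35.

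The rest of the pathway was read from further gene lists. Of 21 interferon genes listed, 19 were in the table and all 19 were at 0 in every library. Of the receptors and JAK-STAT genes, 15 of 17 were tested; 0 were at an adjusted or unadjusted p under 0.05 by edgeR. Jak1, the kinase shared by interferon receptors, stood at 51.3, 52.1 and 113 FPKM in WT, against 73.7, 51.9 and 45.0 FPKM in 5xFAD. Ptpn6, the phosphatase SHP-1, stood at 49.9, 36.3 and 73.2 FPKM in WT, against 58.3, 52.4 and 38.2 FPKM in 5xFAD. Both overlapped between genotypes in FPKM. The 15 tested genes had a median log2 fold change of 0.26.

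Of the genes that sense nucleic acid upstream of interferon, 16 of 18 in the table were tested; 0 passed edgeR's adjusted threshold, 2 were higher at an unadjusted p under 0.05 and 0 were lower. That is 12.5% of the tested genes of this list, near the 12.0% of all tested genes at that p (8.46% higher). Traf3, an adaptor of several of these receptors, had 38.6, 38.2 and 14.6 counts in WT, against 159, 73.8 and 62.4 in 5xFAD (log2 fold change 1.66, SE 0.57; edgeR unadjusted p = 0.00714, adjusted p = 0.290). Tlr7, the endosomal receptor for single-stranded RNA, had 0.989, 18.1 and 0 counts in WT, against 29.9, 35.0 and 49.5 in 5xFAD (log2 fold change 2.48, SE 1.14; edgeR unadjusted p = 0.0387, adjusted p = 0.386). Both genes were without overlap in counts and in FPKM. Traf3 and Tlr7 were picked for their p in the fit of the same counts. Tlr7 averaged 0.939 FPKM in WT and passed the filter for testing only through its 5xFAD libraries. Over all tested genes 14.3% lay above in counts and 13.0% in FPKM. The 2 most abundant genes overlapped in FPKM: Unc93b1, the chaperone of endosomal Toll-like receptors, ran from 44.1 to 60.6 FPKM over all libraries and Irf3, a transcription factor of interferon induction, from 3.07 to 41.3 FPKM. In counts Unc93b1 did not overlap (log2 fold change 0.63; edgeR unadjusted p = 0.104).

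Of 54 further interferon-induced genes, 49 were in the table and 41 were tested; 0 passed edgeR's adjusted threshold, 7 were higher at an unadjusted p under 0.05 and 0 were lower. That is 17.1% of the tested genes of this list, beside 12.0% of all tested genes at that p (8.46% higher and 3.55% lower). On the log2(FPKM + 1) scale 45 of the 49 had a positive difference, with a median of 0.83. Of the 41 tested 37 did, with a median of 0.87, beside 60.2% and a median of 0.24 for all tested genes. The summed level of the 49 was 476, 389 and 375 FPKM in WT and 757, 636 and 699 FPKM in 5xFAD. Tap1, a subunit of the peptide transporter of MHC class I loading, had 58.3, 56.2 and 28.1 counts in WT, against 165, 119 and 147 in 5xFAD (log2 fold change 1.53, SE 0.45; edgeR adjusted p = 0.231). Mndal, a gene of the interferon-inducible HIN-200 family, had 13.8, 23.1 and 40.6 counts in WT, against 106, 109.7 and 77.98 in 5xFAD (log2 fold change 1.75, SE 0.57; edgeR adjusted p = 0.267), and its locus holds 3 listed genes. Pml, which builds the nuclear bodies that hold Sp100, had 74.1, 41.2 and 59.3 counts in WT, against 183, 123.4 and 134 in 5xFAD (log2 fold change 1.25, SE 0.44; edgeR adjusted p = 0.291). In counts all 3 separated the genotypes, and in FPKM Tap1 and Pml overlapped. These 3 genes were picked for the smallest p in the fit of the same counts, so their separation in counts is not separate evidence. Over all tested genes 14.3% lay above in counts. The most abundant genes of this list, Ly6e and Ly6a, had log2 fold changes of 0.35 (SE 0.29) and -0.22 (SE 0.48); Ly6e stood at 92.1, 84.1 and 103 FPKM in WT, against 125, 141 and 121 FPKM in 5xFAD. The summed level of B cell markers lay higher in the same 5xFAD libraries (462 to 830 FPKM against 345 to 435 FPKM), and its part in these values was not tested.

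Values of members with and without ISRE letters near the start site stand side by side here, with no test. Of the 19 with a match, 13 had a positive difference, with a median of 0.38 on the log2(FPKM + 1) scale; of the 14 matched promoters without one, 12 were positive, with a median of 0.42. Among the 6 members whose genotypes did not overlap in FPKM, 3 had ISRE letters (Igtp, Gbp2 and Oas1a) and 3 did not (Trim25, Xaf1 and Sp100). Over all 9651 tested genes 60.2% had a positive difference, and in FPKM 13.0% lay above and 4.42% below without overlap. The remaining 9 members, for which no promoter window was matched, were Dhx58, Zbp1, Usp18, Parp9, Parp14, Oas2, Mx1, Mx2 and Rtp4.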

How the data were processed

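RNA from frozen lung B cells was extracted with TRIzol and made into stranded libraries after ribosomal RNA depletion, per the labels' protocols. Builds mm10 and GRCm38 and, among tools, HISAT2 2.0.4, cutadapt 1.9.3, Cuffdiff and Cufflinks stand in the submitters' processing notes; what each was used for is not given there. The deposited table gives FPKM and a count per gene and sample, per the file headers. The deposited counts are estimated counts, mostly whole multiples of a step between 0.917 and 1.04 per library (93.9% to 97.3% of values from 0.5 steps up, tolerance 0.05). Estimated counts were rounded and tested with edgeR 4.0.16 (quasi-likelihood, TMM) (R 4.3.3) on 9651 genes whose FPKM averaged 1 or more over the 6 libraries, adjusted over all of them by Benjamini-Hochberg. Each SE was obtained by dividing the size of the log2 fold change by the root of its F value. Rows sharing a symbol were summed; starts were raised by 1 to count from 1. Alternatives used DESeq2 1.42.0 and limma 3.58.1; pseudocounts were 1 or 0.1. The edgeR test was run on simulated counts, and limma on log2(CPM + 1) of those counts. The limma fits on FPKM were not tried in this way. A value of exactly 0 may be a failed estimate, and the depth of 628581 to 782297 counts limits weak genes.

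Members and lists were chosen with earlier results of these data known. Members with values in every library were those at an unadjusted p under 0.05, those without overlap in FPKM, and the 2 most abundant of each role; from other lists, up to 3 genes at that p and the 2 most abundant. Irgm2, Isg15, Usp18 and other members named beside them were chosen after their values were seen. The interferon ligands, all at 0, were not named.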

Additional observations from a re-analysis of the deposited data

How the results depend on the processing

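In all alternatives tried, 0 of the 42 members and 0 genes of the other interferon lists were called. The 4 members at an unadjusted p under 0.05 became 1 to 5 when 1 library was left out, the 1 without 5xFAD replicate 1 (Gbp2). The 11 calls over all genes became 3 to 75 when 1 library was left out, 7 with DESeq2 size factors, 6 over summed loci, 5 from a mean of 5 FPKM, 62 without a filter, 62 with DESeq2, and 0 in each of the 3 limma fits (pseudocounts 1 and 0.1, and quantile-normalized values; 1148 genes were at an unadjusted p under 0.05 with pseudocount 1). The replicate block gave 26 calls over all genes and 3 members at an unadjusted p under 0.05; same-numbered libraries did not deviate together (r between -0.02 and 0.00), so the numbers were not read as pairs. The direction of Adar, Oasl2, Irgm1, Ifi47, Dhx58, Lgals3bp and Samd9l, none of them called, changed in 1 to 4 alternatives each; Igtp, Trim25, Ddx58, Gbp2, Xaf1, Oas1a, Sp100, Ifitm2 and Ifitm3 kept their sign. Dividing counts by the step of each library, added after the data were seen, gave 11 calls over all genes. Over the 250 bases before the start site alone, ISRE letters were present in 45.5% of matched members, against 3.46% of all genes. That window was also added later. The median standard error of tested members was 0.87 on the log2 scale and 14 members averaged under 10 counts, which limits what these libraries can show for weak genes. The causes of these changes were not tested.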
